A study of Mus musculus with 76 samples.

Results

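Gene signals of microdissected alveolar septa were compared between wild-type mice exposed to cigarette smoke for 3 months and wild-type control mice. The comparison held 9 of the 76 arrays of the study, 5 from smoke-exposed and 4 from control mice, chosen by their titles as wild-type septa at 3 months. Each array came from a different mouse, so the replicates were animals. The study set wild-type mice beside mice without NOXO1, the organizer subunit of the NADPH oxidase NOX1, and took septa and vessels at 3 and 8 months by microdissection.

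Smoke came from Kentucky 3R4F research cigarettes, at 140 mg of particles per cubic metre for 6 h a day on 5 days a week, starting at week 12 of age. The labelled time of these 9 arrays is 3 months, whereas the protocol text, shared by all arrays, speaks of 8 months of exposure. That text gives a single strain, C57BL/6-Noxo1(tm1881_17.2Arte), and does not say whether wild-type mice were littermates of the knockouts. The labels do not describe what the control mice underwent during the hours of exposure. For comparison, smoke-exposed and control knockout septa at 3 months (5 and 5 arrays), wild-type septa at 8 months (5 and 5 arrays) and wild-type vessels at 3 months (5 and 5 arrays, with 2 of the control arrays from the same mouse) were taken from the same deposit.

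The septum is the wall between neighbouring air spaces, in which flat type 1 pneumocytes and a capillary network face each other across a shared basement membrane, with cuboidal type 2 pneumocytes in the corners. Polycyclic hydrocarbons in smoke activate the aryl hydrocarbon receptor, which induces cytochrome P450 genes such as Cyp1a1, and oxidants in smoke release the transcription factor NRF2 from its inhibitor KEAP1. Damaged proteins activate heat shock factor 1, which induces chaperones of the HSP70, HSP90 and HSP40 families.

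The signal is the deposited log2 value of 1 array feature per gene. As a floor for what the arrays can tell from background, 1324 olfactory and vomeronasal receptor genes, which lung is not known to use, had a median of 2.02 and a 95th percentile of 3.32 over the 9 arrays. Of 20710 genes, 12355 (59.7%) had a mean above that percentile. Type 1 pneumocyte markers averaged 9.24 to 10.44 in smoke-exposed and 10.09 to 10.71 in control septa, against 7.06 to 9.17 in vessels of the same exposure time. Smooth muscle markers averaged 5.67 to 6.50 in smoke-exposed and 5.62 to 6.49 in control septa, against 9.51 to 11.02 in vessels. Smoke-exposed replicate 5 stood apart, with the lowest median correlation with the other septa of all septa arrays (0.840, against up to 0.901). Control replicate 2 had a signal of 10.89 for Xist, the RNA of the inactive X chromosome, and 2.27 for the Y-linked Eif2s3y, whereas the 8 other arrays had Xist at 1.49 to 4.39 and Eif2s3y at 7.26 to 8.22. The labels do not give the sex of the mice.

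Of all genes tested, 1 passed adjustment over all of them, the amino acid transporter gene Slc6a14, which fell in smoke-exposed septa (0.00483% of 20710 genes called). No gene passed in the higher direction (0% called). At an unadjusted p under 0.05 in limma, 1054 genes were found (5.09%), of which 434 were higher (2.1%) and 620 lower (2.99%) in smoke-exposed septa. Among the genes above the receptor percentile the shares were 1.67% higher and 3.63% lower. The counts for the gene lists below are to be read beside these shares. The median difference over all genes was -0.03, and 9897 of 20710 differences were above 0. Apart from Slc6a14, the values below therefore describe these 9 mice, and the genes did not pass the test.

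SLC6A14 is a sodium- and chloride-coupled transporter that carries neutral and cationic amino acids into epithelial cells. Its signal was 4.65, 1.36, 2.27, 2.02 and 1.65 in the smoke-exposed replicates 1 to 5, and 4.62, 6.07, 6.32 and 6.54 in the control replicates 1 to 4. Smoke-exposed replicates 2 to 5 lay below the receptor percentile of 3.32, control replicates 2 to 4 lay above 6, and the groups met where smoke-exposed replicate 1 read as high as control replicate 1. The mean was 2.39 ± 1.31 in smoke-exposed and 5.89 ± 0.87 in control septa (SD, n = 5 and n = 4), and the difference was -3.50 ± 0.57 (SE) on the log2 scale with a limma adjusted p of 0.00431. Because most smoke-exposed values were at background, the log2 difference does not give the full size of the change, and the array holds 1 named feature for this gene. The call used the spread of all 39 septa arrays: fitted on the 2 groups alone the difference was the same and the adjusted p was 0.984. Without control replicate 3 the difference was -3.35 with an adjusted p of 0.0642, and without control replicate 4 it was -3.28 with an adjusted p of 0.0796. It passed without smoke-exposed replicate 5 (-3.31, adjusted p 0.0317) and without control replicate 2 (-3.44, adjusted p 0.0426).

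Slc6a14 was then read outside the 2 groups compared. The other septa arrays had entered the spread behind its call, and the vessels shared mice with the septa compared. In knockout septa at 3 months it averaged 5.04 ± 0.74 after smoke and 5.20 ± 0.83 in controls (SD, n = 5 each). In wild-type septa at 8 months the averages were 6.04 ± 0.17 after smoke and 6.20 ± 0.83 in controls (SD, n = 5 each). In wild-type vessels at 3 months they were 2.01 ± 0.43 after smoke and 2.80 ± 1.17 in controls (SD, n = 5 and n = 4), both below the receptor percentile. The 2 control vessel arrays of the same mouse, averaged here, read 6.34 and 2.07. The exact two-sided permutation p was 0.730, 0.667 and 0.254 for these 3 comparisons, and 0.730 for each after adjustment over the 3. Of the 39 septa arrays of the study, those below the receptor percentile were the 4 smoke-exposed wild-type arrays at 3 months, and the 4 groups of control septa averaged 5.20 to 6.38. The smoke effect differed from that in knockout septa by -3.33 ± 0.78 (SE, unadjusted p 0.000103, adjusted p 0.933 over all genes in limma). From that at 8 months it differed by -3.34 ± 0.78 (SE, unadjusted p 9.98e-05, adjusted p 0.552 in limma), so neither difference passed over all genes. From that in vessels it differed by -2.73 ± 1.09 (SE, unadjusted p 0.0146, adjusted p 0.894 in limma).

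**Figure D1:**
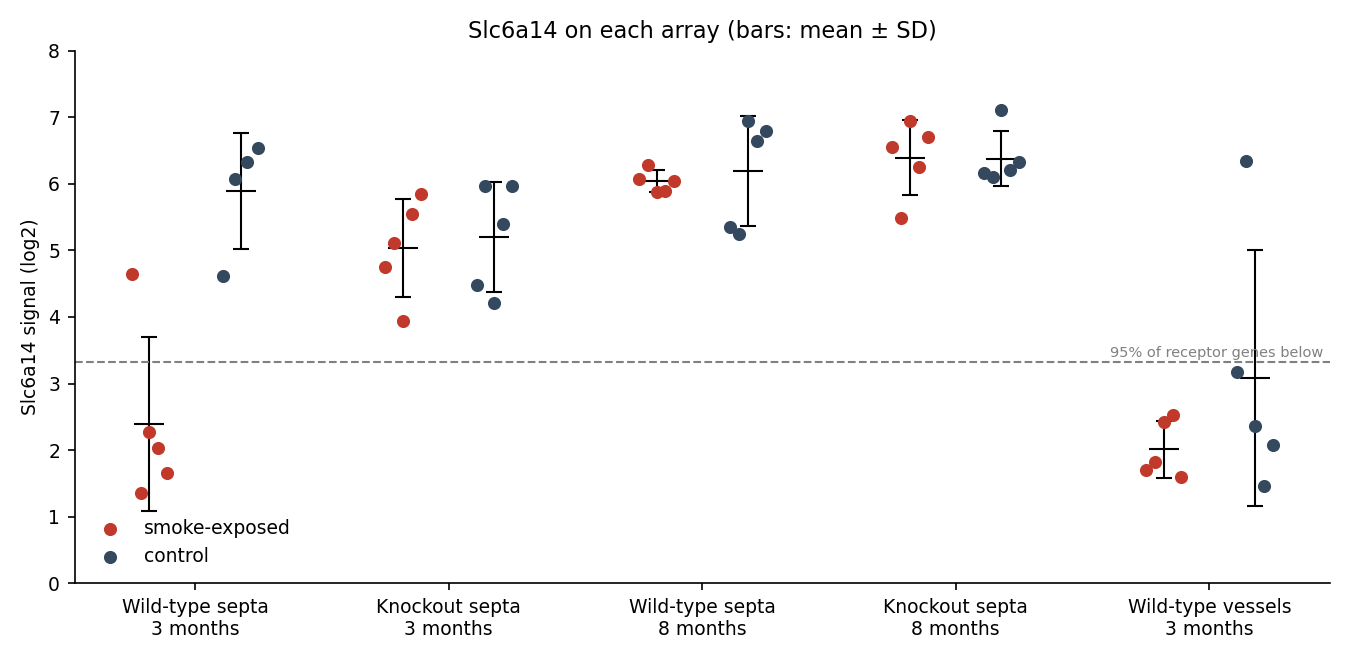
Log2 signal of Slc6a14 (vertical axis) on each array of 5 pairs of groups (horizontal axis), smoke-exposed in red and control in blue, with mean ± SD as bars and the receptor 95th percentile of 3.32 as a dashed line. In wild-type septa at 3 months, 4 of 5 smoke-exposed arrays lie below the line and all 4 control arrays above it, whereas all smoke-exposed and control septa of the 3 other pairs lie above it. The vessel controls are drawn as 5 arrays from 4 mice.

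The promoter of Slc6a14 is shown because it belongs to the gene that passed, those of Dnaja1 and Hsph1 because they had the lowest p of the heat shock list, and that of Per3 because it had the lowest p of the clock list. Sequences are from RefSeq on GRCm38.p6, the 250 bases before the annotated start, 5′ to 3′ on the gene's strand. They lie at chrX:21714650-21714899 on the plus strand, chr4:40722218-40722467 on the plus strand, chr5:149636337-149636586 on the minus strand and chr4:151044666-151044915 on the minus strand. In all but Slc6a14, capitals mark matches on either strand to pairs of inverted heat shock units (GAANNTTC or TTCNNGAA), an E-box (CACGTG) or a D-box (TTANGTAA). Slc6a14 is shown without marks, since no motif search was made for it alone.
Slc6a14: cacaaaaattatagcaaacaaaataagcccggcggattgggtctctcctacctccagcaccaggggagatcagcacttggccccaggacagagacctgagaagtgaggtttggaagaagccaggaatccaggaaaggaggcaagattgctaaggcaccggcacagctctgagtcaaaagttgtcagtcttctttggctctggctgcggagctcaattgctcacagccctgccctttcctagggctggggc
Dnaja1: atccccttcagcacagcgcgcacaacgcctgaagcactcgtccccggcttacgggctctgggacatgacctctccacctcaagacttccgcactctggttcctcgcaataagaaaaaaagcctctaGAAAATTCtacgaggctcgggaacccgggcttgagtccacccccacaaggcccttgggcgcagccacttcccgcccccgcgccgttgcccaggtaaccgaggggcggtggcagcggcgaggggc
Hsph1: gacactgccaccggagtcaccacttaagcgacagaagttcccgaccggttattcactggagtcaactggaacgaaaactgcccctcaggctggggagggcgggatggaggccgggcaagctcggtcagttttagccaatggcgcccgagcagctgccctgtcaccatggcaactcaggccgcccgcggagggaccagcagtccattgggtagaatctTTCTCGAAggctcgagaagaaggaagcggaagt
Per3: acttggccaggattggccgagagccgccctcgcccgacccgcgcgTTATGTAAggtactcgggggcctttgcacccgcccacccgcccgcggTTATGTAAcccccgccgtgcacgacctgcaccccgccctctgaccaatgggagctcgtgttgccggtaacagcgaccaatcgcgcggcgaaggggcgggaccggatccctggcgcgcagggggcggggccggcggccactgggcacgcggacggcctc
Counted from the annotated start, the Dnaja1 match begins at -124 and the Hsph1 match at -33, and the Per3 promoter has 2 D-box matches. Over 16203 promoters of this length, 11.6% held a heat shock pair of either kind, 6.97% an E-box and 1.93% a D-box. Of 20 heat shock list promoters 6 (30%) held a heat shock pair, and of 15 clock promoters 5 (33.3%) held an E-box and 1 (6.67%) a D-box.

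By lowest p, 24 genes were named, 12 in each direction, among genes above the receptor percentile. In the lower direction these were Slc6a14 and 11 genes with an adjusted p of 0.66 to 0.67. Scnn1a encodes the alpha subunit of the epithelial sodium channel, which draws fluid out of the air spaces. It read 9.95, 10.55, 9.61, 9.71 and 10.02 in smoke-exposed replicates 1 to 5 and 10.47, 11.39, 10.70 and 11.09 in control replicates 1 to 4, a difference of -0.94 ± 0.24 (SE), with smoke-exposed replicate 2 within the control range. Cgn encodes cingulin, a protein of tight junctions. It read 9.42, 6.75, 8.98, 6.84 and 7.97 in smoke-exposed and 9.57, 10.01, 8.92 and 8.57 in control septa (-1.28 ± 0.36, SE). Smoke-exposed replicates 1 and 3 lay within the control range and the other 3 below it. Scel encodes sciellin, first known from the cornified envelope of skin. It read 7.18, 5.95, 5.55, 6.47 and 7.24 in smoke-exposed and 7.62, 8.78, 7.78 and 8.14 in control septa (-1.60 ± 0.45, SE), and the groups did not overlap. Cbr2 encodes a carbonyl reductase abundant in mouse lung. It read 12.63, 12.65, 13.50, 12.64 and 13.08 in smoke-exposed and 13.87, 13.86, 13.55 and 13.61 in control septa (-0.82 ± 0.20, SE). The groups lay just apart, and a second feature of Cbr2 differed by -1.24. Over all genes, groups without overlap were found for 165 genes lower in smoke-exposed septa (0.797%) and 153 higher (0.739%).

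The other genes of the lower group had various roles. Adss, the adenylosuccinate synthetase of AMP synthesis, averaged 5.80 ± 0.68 in smoke-exposed and 7.65 ± 0.54 in control septa (SD, n = 5 and n = 4), a difference of -1.85 ± 0.42 (SE) without overlap. Daam2, a formin of Wnt signalling, read 6.49, 6.31, 3.73, 4.04 and 2.52 in smoke-exposed and 7.13, 7.04, 6.56 and 6.49 in control septa. Its difference of -2.19 ± 0.61 (SE) was carried by smoke-exposed replicates 3 to 5, since replicates 1 and 2 were close to the controls. Txndc16, an endoplasmic reticulum protein with a thioredoxin domain, differed by -2.08 ± 0.58 (SE), with smoke-exposed replicate 4 lowest at 2.99, and without that replicate the difference was -1.37. Tmod1, which caps actin filaments, averaged 2.99 ± 1.56 in smoke-exposed and 5.58 ± 0.59 in control septa (SD, n = 5 and n = 4), the first mean being below the receptor percentile. Rnf113a2 differed by -2.05 ± 0.55 (SE), and whether its feature also reads its close relative Rnf113a1 was not tested. Snapin, a SNARE-associated protein, differed by -1.17 ± 0.33 (SE), but its 2 other features differed by 0.10 and -0.23, and the mean of all 3 by -0.43.

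The 12 genes with the lowest p in the higher direction had adjusted p values of 0.67 to 0.78. None passed. Mrps2, of the small mitochondrial ribosomal subunit, averaged 8.02 ± 0.84 in smoke-exposed and 5.02 ± 2.09 in control septa, but its second feature differed by -0.50. Nob1, the nuclease that matures the small ribosomal RNA, averaged 4.69 ± 0.68 in smoke-exposed and 2.46 ± 0.60 in control septa, the control mean being below the receptor percentile. Psma6, a subunit of the 20S proteasome core, read 9.05, 8.90, 9.44, 9.19 and 9.34 in smoke-exposed and 8.62, 7.61, 8.24 and 7.58 in control septa (1.17 ± 0.36, SE). Lig1, the ligase that joins fragments of the lagging DNA strand, read 8.55, 8.50, 8.73, 9.19 and 8.75 in smoke-exposed and 7.20, 7.71, 7.93 and 6.39 in control septa (1.44 ± 0.39, SE). For both genes every smoke-exposed array was above every control array, and each had 1 feature. Asb7, an adaptor of a ubiquitin ligase, had the greatest difference of the 12, 3.19 ± 0.86 (SE), with smoke-exposed arrays at 5.91 to 6.93 and control arrays at 1.91 to 3.94, but its second feature differed by 0.22. Dpcd (3.13), Gpn2 (3.03), Ttll12 (2.97) and Slc35d1 (2.57) had similar differences, with SEs of 0.75 to 0.85, and the control means of Gpn2 and Ttll12 were below the receptor percentile. The other features of Gpn2 differed by 0.09 and 0.73. With the mean of all features the difference was 1.29 for Gpn2, 1.25 for Mrps2 and 1.70 for Asb7. Nhsl2 (1.04 ± 0.29) and Yipf1 (0.99 ± 0.31, SE) had other features that differed the opposite way. Dnaja1, the last of the 12, is described with the chaperones.

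**Figure D2:**
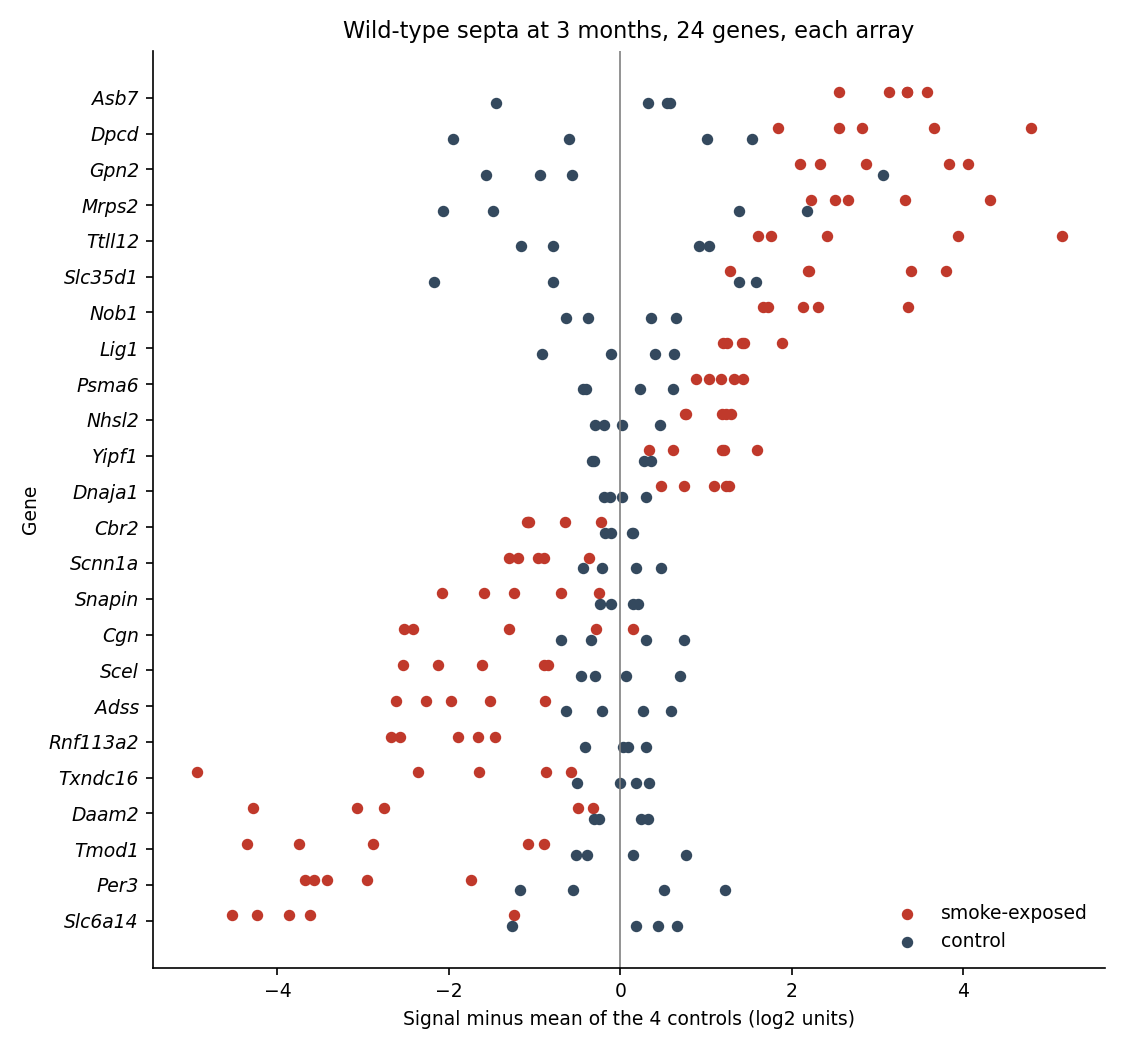
Log2 signal of the 24 genes on each of the 9 arrays after subtraction of the mean of the 4 control arrays (horizontal axis), with 1 row per gene, smoke-exposed in red and control in blue. The 12 upper genes have most red points right of the blue ones, and the lower 12, of which Slc6a14 is last, have most red points left of them.

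Among heat shock proteins and their cochaperones, 21 of 24 measured genes had differences above 0, against 9897 of 20710 genes in all. The median was 0.44, beside -0.03 over all genes. At an unadjusted p under 0.05, 7 were higher and 0 lower, beside 2.1% and 2.99% of all genes. None passed adjustment over all genes. Dnaja1, an HSP40 cochaperone that delivers clients to HSP70, read 10.94, 10.66, 11.46, 11.43 and 11.29 in smoke-exposed and 10.21, 10.00, 10.48 and 10.07 in control septa (0.96 ± 0.27, SE, adjusted p 0.666 in limma). On this feature all smoke-exposed arrays were above all controls. A second feature of Dnaja1 differed by 0.46 ± 0.77 (SE), and the mean of its features by 0.71. Dnajb1, another HSP40 cochaperone, read 12.04, 11.81, 12.80, 12.62 and 12.69 in smoke-exposed and 11.17, 11.41, 11.76 and 11.80 in control septa (0.86 ± 0.35, SE, adjusted p 0.952 in limma). The gap between the groups was narrow, since smoke-exposed replicate 2 nearly met control replicate 4. Hsph1, an HSP110 nucleotide exchange factor of HSP70, read 10.40, 10.19, 10.60, 11.61 and 11.25 in smoke-exposed and 10.29, 7.78, 9.48 and 9.90 in control septa (1.44 ± 0.48, SE). Control replicate 2 was the low value, and control replicate 1 lay within the smoke-exposed range.

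Hspb8, a small heat shock protein, averaged 8.07 ± 1.09 in smoke-exposed and 6.57 ± 0.86 in control septa (SD, n = 5 and n = 4). The remaining 3 members with a low p, named after their values were seen, were Hspd1, the mitochondrial chaperonin (0.63), Hspa4 (0.55) and Hsp90ab1 (0.38). Hspa1a, the inducible HSP70, also named after its values were seen, had the largest difference of the list, 2.09 ± 1.11 (SE), with an unadjusted p of 0.0661 in limma. It read 8.36, 9.44, 11.29, 10.61 and 11.51 in smoke-exposed and 7.18, 7.03, 8.36 and 10.04 in control septa, so the groups overlapped at control replicate 4, and its near-identical copy Hspa1b may share its signal. As a median over the list, smoke-exposed replicates 4 and 5 were 0.78 and 0.66 above the control mean, and replicates 1 to 3 were 0.18, 0.41 and 0.13 above it, while the controls lay from -0.07 to 0.11. When each of the 9 arrays was left out in turn, the list median was 0.31 to 0.54. The count above 0 was then 19 to 21. Without smoke-exposed replicate 5, 4 members were higher at an unadjusted p under 0.05 in place of 7.

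The integrated stress response, which is set off by unfolded proteins or lack of amino acids, had 12 of 14 differences above 0 and a median of 0.25, but 0 members at an unadjusted p under 0.05. Ddit3, its proapoptotic transcription factor, had the lowest p of the list (1.17 ± 0.65, SE). Psat1, a serine synthesis enzyme, averaged 4.46 ± 1.84 in smoke-exposed and 3.21 ± 0.36 in control septa (SD, n = 5 and n = 4), with smoke-exposed replicate 4 at 7.30. Amino acid transporters other than Slc6a14 were spread on both sides of 0, with 14 of all 31 above 0 and a list median of -0.14, which turned to 0.11 without control replicate 2. Slc1a3, a glutamate transporter, averaged 6.46 ± 0.69 in smoke-exposed and 7.46 ± 0.63 in control septa (SD, n = 5 and n = 4). It was the other member at an unadjusted p under 0.05 in the lower direction, and no member was so in the higher direction. Slc1a5, a glutamine transporter, differed by -0.66 ± 0.42 (SE), and Slc7a2, a carrier of cationic amino acids, by -1.28 ± 0.78 (SE).

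The genes most tied to smoke chemistry did not pass. Among the aryl hydrocarbon receptor and its targets, 4 of 10 differences were above 0, the median was -0.10, and 0 members had an unadjusted p under 0.05. With 1 array left out the count was 3 to 6, and the median turned to 0.12 without control replicate 3. Among the 6 members above the receptor percentile 3 were above 0, with a median of 0.215. Cyp1a1, the classical target, read 2.35, 4.09, 3.83, 4.84 and 4.67 in smoke-exposed and 1.90, 3.46, 5.05 and 3.48 in control septa (0.48 ± 0.84, SE), with full overlap close to the receptor percentile. Cyp1b1 averaged 3.08 ± 0.67 in smoke-exposed and 2.38 ± 0.99 in control septa (SD, n = 5 and n = 4), both below that percentile. Nqo1, a quinone reductase and target of both the receptor and NRF2, averaged 5.65 ± 0.78 in smoke-exposed and 4.53 ± 1.52 in control septa (1.12 ± 0.96, SE). Of 16 NRF2 and antioxidant genes 12 were above 0 with a median of 0.08, and of 18 glutathione S-transferases 12 were above 0 with a median of 0.14. Neither list had a member at an unadjusted p under 0.05, and the NRF2 median was -0.01 without smoke-exposed replicate 2. Hmox1, the heme oxygenase, differed by 0.52 ± 0.52, and Gstm4, whose sequence is close to others of its family, by 0.55 ± 0.32 (SE).

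The NADPH oxidase list, which holds the gene the study deleted, had 7 of 15 differences above 0, a median of -0.03 and 0 members at an unadjusted p under 0.05. The median turned to 0.18 without control replicate 3 and to 0.02 without smoke-exposed replicate 5, when 10 were above 0 and 1 member was higher at an unadjusted p under 0.05. Among the 9 members above the receptor percentile 5 were above 0, with a median of 0.16. Noxo1 itself read 5.08, 4.02, 5.17, 5.49 and 2.41 in smoke-exposed and 2.82, 4.13, 5.55 and 3.43 in control septa (0.45 ± 0.66, SE, adjusted p 0.999 in limma). Both groups spanned about the same range, from below the receptor percentile upward. Cyba, the membrane subunit p22phox that stabilizes several oxidases, had the lowest p of the list and read 12.59, 11.98, 12.68, 12.16 and 12.01 in smoke-exposed and 11.76, 11.84, 11.42 and 12.22 in control septa. Its difference was 0.47 ± 0.24 (SE, unadjusted p 0.0525 in limma), and control replicate 4 lay among the smoke-exposed arrays. Ncf4, the p40phox of phagocytes, differed by 0.52 ± 0.62, and Rac1 by -0.15 ± 0.13 (SE).

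Circadian genes included some of the widest differences. Their list had 6 of 17 differences above 0 and a median of -0.27. At an unadjusted p under 0.05, 0 were higher and 3 lower, beside 2.1% and 2.99% of all genes. Per3, a repressor of the clock loop, read 2.40, 3.01, 4.23, 2.54 and 2.28 in smoke-exposed and 6.47, 5.42, 4.79 and 7.19 in control septa (-3.08 ± 0.87, SE, adjusted p 0.666 in limma). The groups did not overlap, and 4 of the 5 smoke-exposed values were below the receptor percentile. Dbp, a transcription factor that binds D-boxes and is among the strongest outputs of the clock, read 5.44, 5.95, 11.09, 3.71 and 7.12 in smoke-exposed and 9.07, 10.43, 8.68 and 11.11 in control septa. Its difference was -3.16 ± 1.14 (SE), and smoke-exposed replicate 3 was as high as the highest control. Nr1d2, the repressor REV-ERB beta, read 8.05, 8.28, 9.12, 7.60 and 8.89 in smoke-exposed and 9.14, 9.50, 9.13 and 9.05 in control septa (-0.82 ± 0.38, SE). Replicate 3 was again the highest of the smoke-exposed arrays, as it was for Per3, Dbp and Tef, a relative of Dbp that differed by -0.77 ± 0.40 (SE). The labels do not give the time of day at which tissue was taken. Without smoke-exposed replicate 5 the list median was -0.04 with 8 of 17 above 0.

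**Figure D3:**
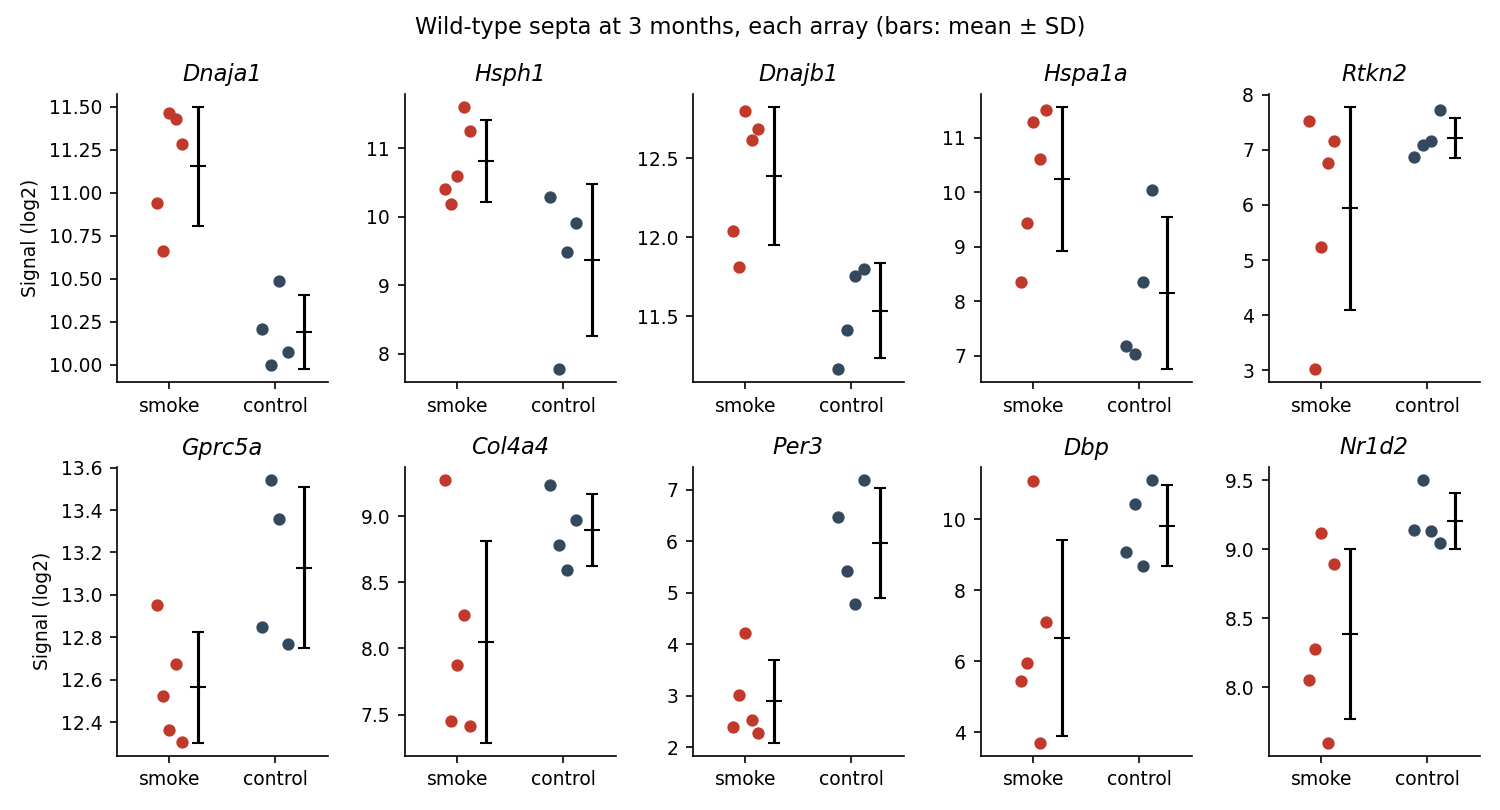
Log2 signal (vertical axes, each with its own range) of 10 genes on each array of wild-type septa at 3 months, smoke-exposed left and control right in each panel, with mean ± SD beside the points. Dnaja1, Dnajb1 and Per3 have groups without overlap; for Dbp, Col4a4 and Rtkn2 the smoke-exposed points run from the control level down to values well below it.

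All 12 type 1 pneumocyte markers had differences below 0, with a median of -0.49. The median was -0.03 over all genes and -0.07 over genes above the receptor percentile, of which 6925 of 12355 were below 0. Markers of lymphatic endothelium (0 of 5 above 0, median -0.51) and mesothelium (1 of 5 above 0, median -0.79) were also low. Of these, however, 3 of 5 lymphatic and 1 of 5 mesothelium markers lay above the receptor percentile. The mesothelium median was -0.12 without control replicate 1. Of the 12 type 1 markers, 2 were lower at an unadjusted p under 0.05, beside 3.63% of genes above the receptor percentile. None passed adjustment. Without smoke-exposed replicate 5, 4 were lower at that p. Rtkn2, used as a type 1 marker, read 7.52, 3.02, 5.24, 6.75 and 7.16 in smoke-exposed and 6.88, 7.09, 7.16 and 7.73 in control septa (-1.28 ± 0.58, SE). Replicates 2 and 3 carried the difference, since the other smoke-exposed arrays were near the controls. Gprc5a, a retinoic acid induced receptor, read 12.95, 12.52, 12.36, 12.68 and 12.31 in smoke-exposed and 12.85, 13.54, 13.36 and 12.77 in control septa (-0.56 ± 0.27, SE). Emp2 (-0.35) and Aqp5, a water channel (-0.41), had smaller differences. As a median over the list, smoke-exposed replicates 1 to 5 stood 0.05, -0.87, -0.57, -0.71 and -0.19 from the control mean, and the controls from -0.21 to 0.30. When each array was left out in turn the list median was -0.60 to -0.38, and 0 of 12 members were above 0 each time. In bulk tissue, fewer cells of a type and less RNA per cell cannot be told apart.

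Type 2 pneumocyte markers had 5 of 12 differences above 0 and a median of -0.14. Etv5, a transcription factor that maintains type 2 cells, read 8.90, 9.12, 9.11, 9.03 and 8.31 in smoke-exposed and 9.54, 9.86, 9.37 and 9.62 in control septa (-0.71 ± 0.26, SE, adjusted p 0.902 in limma). The groups did not overlap, and it was the 1 member of the list at an unadjusted p under 0.05. Abca3, a lipid pump of lamellar bodies, differed by -0.61 ± 0.37 (SE). The mean marker levels of the airway epithelia overlapped between the groups, with club and goblet cell markers at 5.29 to 5.85 in smoke-exposed and 5.50 to 6.16 in control septa and ciliated cell markers at 4.04 to 5.75 in smoke-exposed and 3.78 to 4.58 in control septa. As a median over the list, however, club and goblet cell markers in smoke-exposed replicates 1 to 5 stood -0.40, -0.23, -0.27, -0.49 and -0.24 from the control mean, and in control replicates 1 to 4 they stood 0.07, 0.06, -0.01 and -0.12 from it. On that measure every smoke-exposed array lay below every control array, though the controls were centred on their own mean and the separation was not tested. Over the list 4 of 10 differences were above 0, the median was -0.14 and 0 members had an unadjusted p under 0.05. That median turned to 0.01 without smoke-exposed replicate 4. Type 2 markers averaged 9.28 to 9.94 in smoke-exposed and 9.63 to 9.88 in control septa. All 12 type 1 and all 12 type 2 markers lay above the receptor percentile, as did 7 of 10 club and goblet and 5 of 10 ciliated cell markers. What part these levels had in the values of Slc6a14, Scnn1a, Cgn and Scel was not tested. Capillary endothelium, with 4 of 12 differences above 0 and a median of -0.10 (0.06 without control replicate 2), averaged 9.73 to 10.02 in smoke-exposed and 9.53 to 10.06 in control septa.

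Basement membrane genes were among the lower values of the elastic fibre and collagen list. The list had 7 of 27 differences above 0 and a median of -0.18. At an unadjusted p under 0.05, 0 were higher and 2 lower, beside 2.1% and 2.99% of all genes. Col4a4, which joins Col4a3 and Col4a5 in the collagen IV network of the alveolar basement membrane, read 9.27, 7.45, 7.87, 8.25 and 7.42 in smoke-exposed and 9.23, 8.78, 8.59 and 8.97 in control septa (-0.84 ± 0.37, SE). Smoke-exposed replicate 1 equalled the highest control and the other 4 lay below all controls. Its partner Col4a3 read 8.98, 6.52, 7.63, 7.37 and 9.05 in smoke-exposed and 8.35, 8.66, 8.98 and 8.94 in control septa (-0.82 ± 0.44, SE), with replicates 1 and 5 at the control level. Lamb3, a laminin chain of epithelial basement membranes, differed by -0.96 ± 0.49, and Fbln5, which guides elastic fibre assembly, by -0.75 ± 0.36 (SE). The count above 0 was 3 without control replicate 4 and 12 without control replicate 2. Among emphysema proteases and inhibitors 15 of 24 were above 0 with a median of 0.20. Of the 15 members above the receptor percentile, 8 were above 0 and the median was 0.01. Timp3, the inhibitor bound to matrix, differed by -0.65 ± 0.40 (SE). The 1 member at an unadjusted p under 0.05, Mmp13, a collagenase named after its values were seen, differed by 0.98 ± 0.42 (SE), with both means below the receptor percentile.

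Immune lists gave mixed values. Plasma cell genes had 5 of 7 differences above 0 and a median of 1.13. Beside 2.1% of all genes, 3 members were higher at an unadjusted p under 0.05. Among them Derl3, a protein of the endoplasmic reticulum, named after its values were seen, averaged 3.56 ± 1.26 in smoke-exposed and 1.75 ± 0.66 in control septa, the control mean being below the receptor percentile. Mzb1, a chaperone of antibody-secreting cells, read 4.34, 3.61, 5.23, 4.82 and 8.03 in smoke-exposed and 4.46, 3.08, 2.50 and 4.19 in control septa (1.65 ± 0.69, SE). Smoke-exposed replicate 5 was far above the rest. Tnfrsf17, the receptor BCMA, read 4.84, 6.26, 1.61, 1.89 and 7.40 in smoke-exposed and 1.56, 1.08, 4.42 and 2.93 in control septa (1.90 ± 0.90, SE). The groups overlapped, with smoke-exposed replicates 1, 2 and 5 above all controls. The list median was 0.29 without control replicate 4 and 1.59 without control replicate 1, and without smoke-exposed replicate 5 it was 0.91 with 1 member higher at an unadjusted p under 0.05 in place of 3. Jchain, which joins IgA and IgM units, averaged 7.64 ± 1.31 in smoke-exposed and 6.51 ± 1.84 in control septa (SD, n = 5 and n = 4).

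Marco, a scavenger receptor of alveolar macrophages, read 6.48, 7.71, 9.54, 9.75 and 5.21 in smoke-exposed and 7.47, 6.51, 6.93 and 3.08 in control septa (1.74 ± 0.82, SE, adjusted p 0.957 in limma). Smoke-exposed replicates 3 and 4 were above all controls, and control replicate 4 was below all other arrays. Alveolar macrophage markers had 8 of 12 differences above 0 and a median of 0.19, and the count was 5 without control replicate 4 or without smoke-exposed replicate 3. The median turned to -0.12 without control replicate 4. Chil3, a chitinase-like protein of these cells, differed by -1.44 ± 0.79 (SE), with smoke-exposed replicate 5 at 4.89 and the other arrays at 9.07 to 11.64. Antigen presentation genes had 14 of 16 differences above 0 and a median of 0.21, with 0 members at an unadjusted p under 0.05. Cd74, the invariant chain, averaged 13.64 ± 0.35 in smoke-exposed and 13.21 ± 0.38 in control septa (SD, n = 5 and n = 4). Cytokine and chemokine genes had 16 of 30 above 0 and a median of 0.07. Cxcl16 read 7.74, 8.00, 7.42, 7.73 and 7.51 in smoke-exposed and 8.66, 8.74, 9.15 and 8.07 in control septa (-0.98 ± 0.44, SE), and the groups did not overlap. Interferon-stimulated genes had 5 of 19 above 0 and a median of -0.26, although Irf7, the inducible regulator of type I interferon, differed by 1.89 ± 0.77 and Isg15 by 1.17 ± 0.50 (SE). Mx1, the 1 lower member at an unadjusted p under 0.05, named after its values were seen, differed by -2.42 ± 1.10 (SE), with the smoke-exposed mean below the receptor percentile. Without smoke-exposed replicate 5 that list had 1 higher and 0 lower members at this p.

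**Figure D4:**
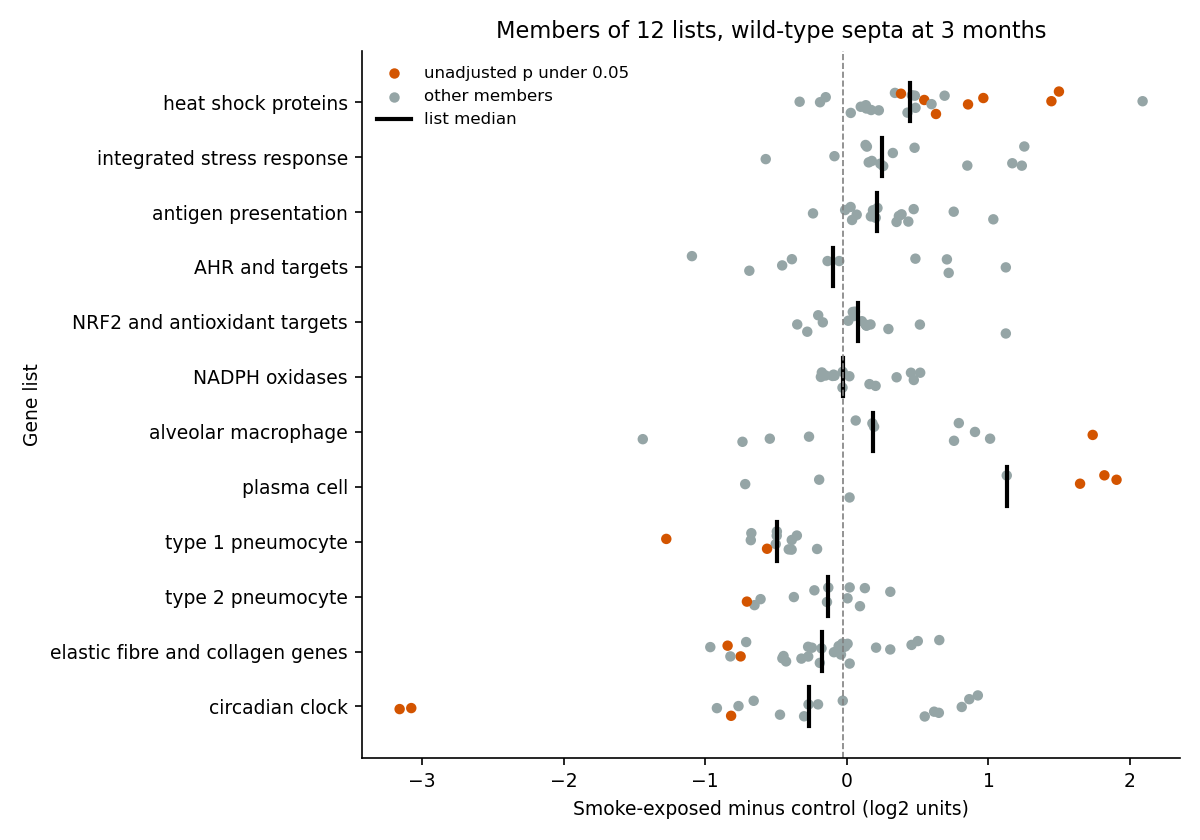
Difference of smoke-exposed minus control septa (horizontal axis, log2 units) for each measured member of 12 gene lists (rows), with members at an unadjusted p under 0.05 in orange, the list median as a black bar and the median of all genes, -0.03, as a dashed line. Heat shock proteins lie mostly right of the line and all 12 type 1 pneumocyte markers left of it, whereas the NRF2, aryl hydrocarbon receptor and NADPH oxidase lists straddle it.

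The smoke effect of wild-type septa at 3 months was set against that of each of the 3 other settings by an interaction term, which asks whether the effects differ. No gene passed adjustment in any of the 3 (0% called each). At an unadjusted p under 0.05 there were 698 genes against knockout septa (3.37%), 1061 against 8 months (5.12%) and 1143 against vessels (5.52%). After Slc6a14, Dnaja1 had the lowest p against knockout septa, with a smoke effect of 0.96 in wild-type and -0.62 in knockout septa, a difference of 1.58 ± 0.38 (SE, adjusted p 0.933 in limma). Adss followed with -1.85 and 0.30. Against 8 months the next genes were Trappc5, of a complex that tethers vesicles (-1.60 and 1.16), and Slc9a9, a sodium and proton exchanger of endosomes (-1.72 and 2.44), with an adjusted p of 0.552 each. Against vessels they were Snrpb2, a spliceosome protein (-0.81 in septa and 3.10 in vessels), Asb7 (3.19 and -2.08) and Cacybp, a cochaperone (-0.19 and 3.91), with an adjusted p of 0.553 each. The smoke-exposed vessels came from the same 5 mice as the septa, the control vessels from mice 22 to 25 and the control septa from mice 21 to 24, and the model held the mouse as a block.

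The heat shock list had a median of 0.44 in wild-type septa at 3 months, -0.13 in knockout septa at 3 months, -0.13 in wild-type septa at 8 months and 0.16 in wild-type vessels at 3 months. The type 1 pneumocyte list had medians of -0.49, -0.05, 0.01 and -0.30 in the same order. For plasma cell genes they were 1.13, -0.12, -0.42 and 0.23, for antigen presentation 0.21, 0.05, 0.01 and 0.59, and for circadian genes -0.27, -0.07, 0.04 and -0.50. Differences between these medians were not tested. Dbp differed by -3.16 in wild-type septa at 3 months and by -5.15 in wild-type vessels at 3 months, but by 0.11 in knockout septa and 2.77 in wild-type septa at 8 months.

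**Figure D5:**
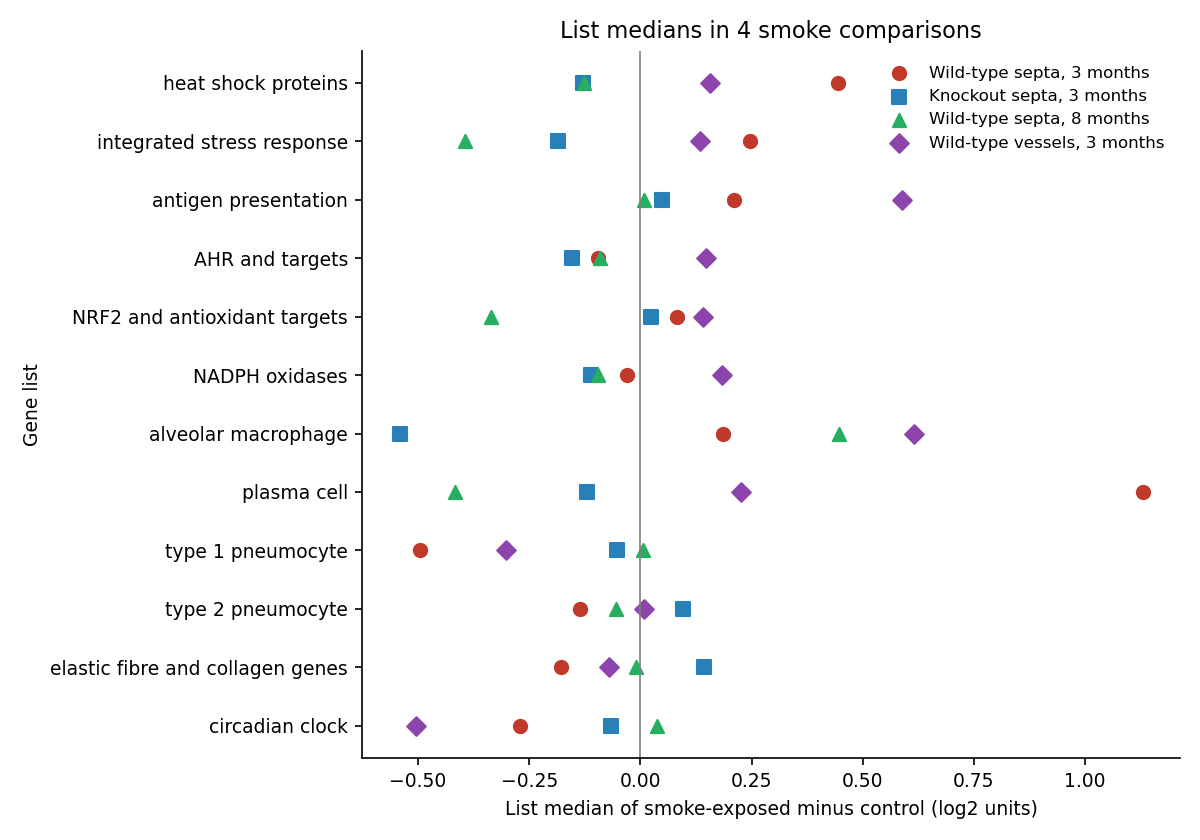
Median over the members of each of 12 gene lists (rows) of smoke-exposed minus control (horizontal axis, log2 units) in wild-type septa at 3 months (red circles) and in 3 other settings. The red circle is rightmost for heat shock, integrated stress response and plasma cell genes and leftmost for type 1 pneumocyte, type 2 pneumocyte and elastic fibre and collagen genes.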

How the data were processed

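Septa were microdissected, total RNA was isolated with an RNeasy Micro kit, amplified with the Ovation PicoSL WTA System V2 and labelled with Cy5, per the labels' protocols, for single-colour Agilent arrays. The submitters' processing notes name limma without a version. The authors deposited log2 values, from 0.94 to 15.79, and the quartiles differed between arrays by at most 0.00235, as after quantile normalization. How background was corrected is not stated in the labels, and the deposited table carries no detection calls. The number of arrays limits the precision. No 2 arrays held identical values.

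Of 62976 features, 31465 had a symbol, of which 29050 were matched by accession to RefSeq and 2933 received a newer symbol, and 31511 had none. Features with an empty cell (671) were left out. For the 6007 genes with several features, the one with the highest mean over the 76 arrays was used, which left 20710 genes.

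The 39 septa arrays were fitted with limma 3.58.1 in R 4.3.3 (group means for 8 groups, eBayes with a trend, Benjamini-Hochberg at 0.05 over all genes). Interactions of smoke with genotype and time came from that fit, and with tissue from a fit over 75 arrays, after a pair of arrays of mouse 25 were averaged, with duplicateCorrelation by mouse (correlation 0.0283). Errors are SD over mice or SE of the fit. Slc6a14 in other samples was tested by exact two-sided permutation with scipy 1.17.1 under Python 3.11.15. Promoters came from RefSeq. The septa fit was run on simulated data for the smoke contrast only, and the interactions were not simulated.

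The members, lists and tests were chosen with earlier results of these data known. Named were genes past adjustment, and the 12 higher and 12 lower genes of lowest p above the receptor percentile and without unnamed models. Up to 4 members per list by lowest p with such signal were named, and under the limits of the 12 the 3 of lowest p per interaction. Slc6a14, Noxo1, Cyp1a1, Cyp1b1, Marco and sex-linked genes were named too. Genes outside this rule are marked in the text.

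Alternatives were quantile normalization, a filter on dim genes, the mean of all features, the brightest feature over the 9 arrays, every feature, the 2 or 4 groups alone, both tissues with a mouse block, no trend, array weights, a replicate block, and each array left out. Septa with the same replicate number deviated from their group means with a correlation of 0.14, 0.10, -0.09 and -0.07 for numbers 1 to 4. For different numbers it ran from -0.13 to 0.09, so numbers 1 and 2 lay above that range. The mean was 0.02 for the same and -0.01 for different numbers. Each array has its own mouse number, and what else the replicate numbers share was not tested. Septa and vessels of the same mouse number come from the same animal.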

Additional observations from a re-analysis of the deposited data

Results flagged for a closer look

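In 4 of 64 groups, over 32 genes, the highest or lowest array lay far from the rest of its group by Dixon's criterion, and chance flags about 1 in 20 groups. Slc6a14 in smoke-exposed wild-type septa at 3 months had its highest value in replicate 1 at 4.65, with the next array at 2.27, and without that replicate the difference was -4.06 with a limma adjusted p of 4.71e-05. Asb7 had its lowest control value in replicate 3 at 1.91, with the next control at 3.69. Control replicate 2 had the highest Xist of the controls at 10.89, with the next at 3.18, and the lowest Eif2s3y at 2.27, with the next at 7.86.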

How the results depend on the processing

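Over 19 alternatives the log2 difference of Slc6a14 ran from -4.06 to -3.24 and its limma adjusted p from 4.71e-05 to 0.984, and it passed in 15. Slc6a14 has 1 named feature, so the mean of all features, the brightest feature and the test of every feature used the same values. The filter and the fit without trend also left the difference as it was, and quantile normalization hardly moved it. The 15 are therefore not independent checks. The count of genes past adjustment was 1, and 0 with the 2 groups alone or with all arrays of both tissues and a mouse block (adjusted p of Slc6a14 0.984 and 0.565). It ran from 0 to 1 with 1 array left out, being 0 without control replicate 3 or 4. With a replicate block it stayed at 1 gene (1093 at an unadjusted p under 0.05, against 1054), and neither that block nor the mouse as a fixed block in the tissue interaction changed another call. The interactions had 0 genes past adjustment in every alternative run. The unadjusted count was 529 with both tissues, 667 among genes above the receptor percentile and 3131 over every feature. For genes above that percentile it was 337, 671 and 712 in the interactions with genotype, time and tissue, against 698, 1061 and 1143. The number tested differed in the settings with fewer genes or with every feature. The cause of these changes in count, and of the others, was not tested. Of 456 recomputed values of the 24 named genes 454 kept their direction, and the exceptions were Nhsl2 (-0.39) and Yipf1 (-0.33) with the mean of all features. The filter, the test of every feature, the 2 groups alone and no trend leave a gene's difference as it was. The genes were also chosen by low p in these same arrays, so this count says little about how firm their directions are.

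For Slc6a14 in other samples, leaving out 1 array gave -1.32 to -0.25 in vessels, -0.40 to 0.03 in septa at 8 months (0.0258 without control replicate 3) and -0.42 to 0.11 in knockout septa. The last sign turned without smoke-exposed replicate 3 (0.107), control replicate 2 (0.0228) or control replicate 5 (0.0232). Signal near background limits Slc6a14, Per3 and Tmod1 in smoke-exposed and Gpn2, Ttll12 and Nob1 in control septa.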

Other observations

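Further lists held members with a low unadjusted p that did not pass adjustment. Lpl, the lipase that releases fatty acids from lipoproteins, read 7.28, 6.10, 6.71, 7.00 and 5.86 in smoke-exposed and 7.86, 7.73, 8.25 and 8.05 in control septa (-1.38 ± 0.52, SE, adjusted p 0.902 in limma), without overlap. Cd36, a fatty acid carrier, differed by -0.44 ± 0.19, whereas Ctsz, a lysosomal protease, differed by 0.83 ± 0.39 (SE). The lysosome and lipid handling list as a whole had 10 of 20 differences above 0 and a median of -0.07, which turned to 0.07 without control replicate 2. Without smoke-exposed replicate 5, 5 members were lower at an unadjusted p under 0.05 in place of 2. Ptgis, the prostacyclin synthase, averaged 5.44 ± 1.12 in smoke-exposed and 6.72 ± 0.26 in control septa (SD, n = 5 and n = 4). Ptgir, the prostacyclin receptor, averaged 2.98 ± 0.73 in smoke-exposed and 4.43 ± 0.68 in control septa, the first mean being below the receptor percentile. These were the 2 members of 24 nitric oxide and vasoactive genes at an unadjusted p under 0.05, and 9 of the 24 were above 0 with a median of -0.11, which was -0.23 without smoke-exposed replicate 5 and -0.03 without control replicate 4.

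Of 20 oxidative phosphorylation genes 7 were above 0, with a median of -0.13. Uqcrb, of complex III, differed by -0.49 ± 0.17, and Cox6c, of complex IV, by -0.57 ± 0.22 (SE), and the Cox6c groups did not overlap. That median was -0.02 without control replicate 2 and -0.22 without control replicate 3, and the count above 0 was 4 without control replicate 4. Immediate early genes had 12 of 21 above 0 and a median of 0.16, with Jun higher by 0.86 ± 0.36 and Myc lower, at -1.75 ± 0.75 (SE). Their median turned to -0.12 without control replicate 2, and without smoke-exposed replicate 5 it was 0.01 with 0 members lower at an unadjusted p under 0.05. Hypoxia response genes had 4 of 16 above 0 and a median of -0.20, with Pfkfb3, a regulator of glycolysis, at -0.70 ± 0.30 (SE), and their median was -0.03 without smoke-exposed replicate 3. Among neutrophil genes, 7 of 10 were above 0 with a median of 0.19, while Ltf averaged 2.56 ± 0.69 in smoke-exposed and 4.76 ± 1.89 in control septa (SD, n = 5 and n = 4). That median turned to -0.01 without smoke-exposed replicate 5, with 5 above 0, and to -0.11 without control replicate 2. In the glucocorticoid-induced list 6 of 14 were above 0 with a median of -0.14, and 0 members had an unadjusted p under 0.05 in limma. With 1 array left out its count above 0 was 3 to 9, the median was 0.10 without smoke-exposed replicate 3 and -0.32 without smoke-exposed replicate 5, and in that last case 2 members were lower at an unadjusted p under 0.05.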
